A study of Mus musculus with 8 samples.

Results

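Of the 384 wells of the plate sorted from the Gip-Cre organoid line, 167 held cells with more Gip than Sst transcripts, and these are described here as Gip-dominant cells. They were chosen from single wells by 3 measured values. A well needed at least 2000 transcripts outside spike-in and mitochondrial rows, Kcnq1ot1 (a nuclear RNA used as a sign of poor cell quality) under 5% of them, and a Gip count above the Sst count. Across the series 844 of 3072 wells on 8 plates passed the first 2 limits, 210 of them on the Gip plate, and the other 43 on that plate were Sst-dominant cells. By condition the Gip-dominant cells numbered 52 untreated, 50 after 24 h of BMP4 and 65 after 4 days of BMP4. The chosen values of Gip, Sst, Kcnq1ot1 and depth are therefore descriptions and not findings.

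K cells are enteroendocrine cells of the upper intestine that release GIP, an incretin peptide that raises insulin secretion after a meal. Enteroendocrine cells arise in crypts and move toward the villus tip, where bone morphogenetic protein (BMP) signalling is higher. BMP ligands act through type I and type II receptors and phosphorylated Smads, and well-known targets are the Id genes, whose products block basic helix-loop-helix factors.

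The cells came from mouse (C57BL/6) intestinal organoids carrying a hormone reporter, were sorted one per well and were counted with molecular identifiers. BMP4 was absent in plate columns 1 to 6, present for 24 h in columns 7 to 12 and for 4 days in columns 13 to 24. All 3 conditions of the Gip line thus lie on 1 plate, so each is a single sample, condition and plate position cannot be told apart, and no test of a difference between conditions was possible. A Cre label can stay in a cell that no longer uses the gene, which limits the reporter as a marker of current Gip expression. The Sst-dominant cells of the same sort show that the label is not confined to cells with dominant Gip.

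Gip-dominant cells held 2039 to 30991 transcripts each, with medians of 5606, 6193 and 5939 in the order untreated, 24 h and 4 days, and median numbers of genes of 2330.5, 2337 and 2274. Their transcripts summed to 405594, 398438 and 496054 per condition. Levels are given as CPM, the count of a gene in such a sum scaled to a total of 1000000, in the same order, with exact Poisson 95% intervals that cover counting error only. The Kcnq1ot1 limit removed 1 of 63 deep wells without BMP4, 6 of 70 at 24 h and 51 of 135 at 4 days, and Kcnq1ot1 within the retained cells stood at 3213, 3176 and 5192 CPM. Gip-dominant cells made up 54.2%, 52.1% and 33.9% of the wells. The part of these differences in the results at 4 days was not tested.

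At the borders of the rule, the 3 retained cells closest to equal counts had Gip to Sst ratios of 1.04, 1.19 and 1.52, and the 3 closest outside had 0.905, 0.843 and 0.638. The depth limit fell between wells of 1972 and 2039 transcripts, and the Kcnq1ot1 limit between 4.57% and 5.19%. Most cells lay far from the border, since the median ratio was 28.0, 132 of 167 had at least 10 times more Gip than Sst, and 3 had a ratio under 2. Every Gip-dominant cell nevertheless held Sst, the somatostatin gene of D cells. Wells with fewer than 200 transcripts, 44 in number, also held a median of 10 Sst and 5 Gip transcripts, while their medians for Sct and Pyy were 0. In the 18 wells of 200 to 500 transcripts the medians were 13.0 Sst, 14.5 Gip, 1 Sct and 0 Pyy. The 54 wells of 500 to 2000 transcripts had medians of 29.1 Sst, 50.8 Gip, 2.00 Sct and 0.5 Pyy.

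The gene that defines these cells lies on chromosome 11 (96024545 to 96030831, plus strand, mm10, GENCODE M21). Its promoter is shown because GATA factors are known to act on it. The 250 bases before the RefSeq start site (GRCm38.p6, chr11:96024295-96024544, plus strand) hold 2 copies of the GATA motif AGATAA, in capitals.
Gip: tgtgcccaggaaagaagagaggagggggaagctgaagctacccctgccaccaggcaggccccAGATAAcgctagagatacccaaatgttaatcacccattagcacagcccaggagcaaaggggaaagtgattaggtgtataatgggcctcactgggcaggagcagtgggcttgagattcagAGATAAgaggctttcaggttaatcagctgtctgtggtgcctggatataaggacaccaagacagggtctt
The motif was searched on both strands and is held by 11.2% of 32851 promoter windows of 300 bases, so its presence is common. Gata4 stood at 106, 123 and 123 CPM and Gata6 at 83.8, 87.9 and 88.7 CPM in the Gip-dominant cells, levels of factors named after their values were seen.

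Gip took 19.0%, 20.4% and 18.1% of all transcripts in the 3 conditions. Per cell, Gip ran from 57123 through a median of 189202 to 314003 CPM without BMP4. At 24 h the lowest, median and highest cells held 59526, 187820 and 318466 CPM, and at 4 days 20977, 152284 and 312646 CPM. The ranges overlapped almost entirely, with the lowest cells at 4 days. Counting is near its limit for this gene, since the cell with the most Gip used 87.6% of the 4096 possible identifiers and 29 cells used over 50% of them.

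The other marker genes stood at levels that differed by less than 2-fold between conditions. Rbp4, a retinol carrier used as a K cell marker, stood at 2875, 3855 and 3481 CPM. Fabp5, a fatty acid binding protein, stood at 3714, 3913 and 2989 CPM, against 1018, 774 and 866 CPM in Sst-dominant cells. Rfx6, a transcription factor of endocrine cells of gut and pancreas, stood at 1111, 1237 and 862 CPM, against 369, 230 and 234 CPM. Cnr1, the cannabinoid receptor, was at 405, 415 and 311 CPM and at 69.5, 12.1 and 0 CPM in Sst-dominant cells. Rbp4 was at 3023, 1843 and 2086 CPM in Sst-dominant cells, below the Gip-dominant level at 24 h and 4 days but not without BMP4. Fabp5, Rfx6 and Cnr1, which the choice of cells did not use directly, were thus higher in Gip-dominant cells in all 3 conditions, and Gip itself chose the cells. Hhex, a D cell transcription factor, was at 32.1, 15.1 and 44.4 CPM against 927, 847 and 406 CPM.

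**Figure D1:**
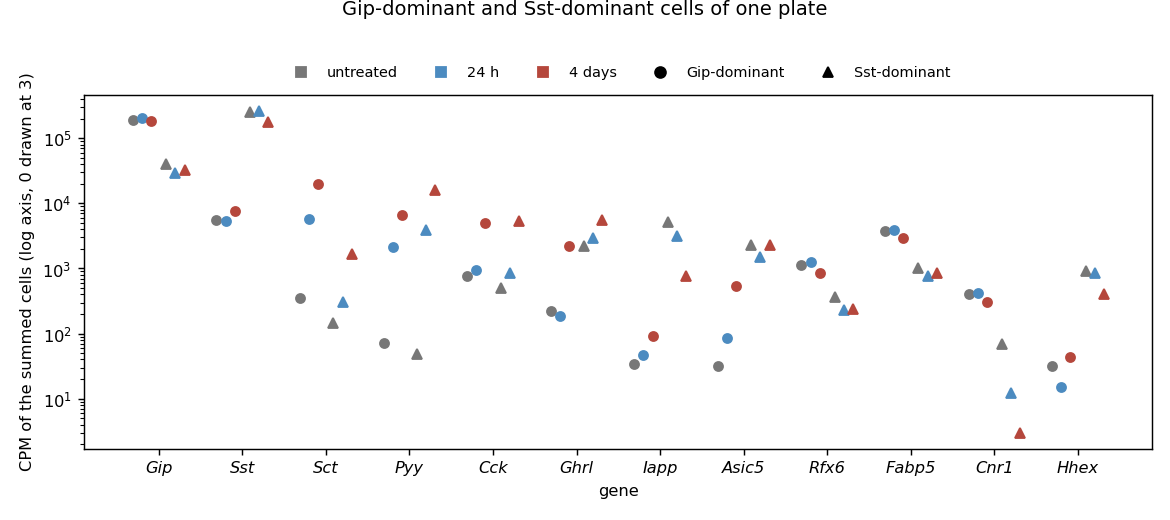
Level of 12 genes (CPM of the summed cells, logarithmic axis, a value of 0 drawn at 3) in Gip-dominant cells (circles) and Sst-dominant cells (triangles) in the 3 conditions. Gip, Fabp5, Rfx6 and Cnr1 are higher in the Gip-dominant cells, Sst, Iapp, Asic5 and Hhex in the Sst-dominant cells, and Sct is 19941 against 1644 CPM at 4 days.

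Further genes that were high in Gip-dominant and low in Sst-dominant cells were named by their ratio of mean levels, a contrast that the choice of cells shapes and that is given as description only. Kcnj3, a G protein-gated potassium channel subunit, was at 259, 276 and 167 CPM against 6.95, 12.1 and 9.77 CPM. Galr1, a galanin receptor, was at 101, 52.7 and 10.1 CPM against 0, 0 and 4.88 CPM. Fmo1, a flavin monooxygenase, was at 113, 92.9 and 36.3 CPM against 0, 0 and 4.88 CPM. Tmprss7, a membrane serine protease, was at 111, 121 and 127 CPM against 6.95, 0 and 4.88 CPM. Galr1 and Fmo1 were lower at 4 days within the Gip-dominant cells, while Tmprss7 stayed within 1.14-fold of its untreated level.

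The question the plate addresses is how BMP4 alters hormone and other expression in these cells. Over the 3631 genes with a mean of at least 50 CPM, 72 (1.98%) were at least 2-fold higher and 81 (2.23%) at least 2-fold lower at 24 h than in untreated cells. In either direction these were 153 genes (4.21%). At 4 days 139 (3.83%) were at least 2-fold higher and 168 (4.63%) at least 2-fold lower, together 307 (8.45%). Between 4 days and 24 h, 75 genes (2.07%) were at least 2-fold higher and 93 (2.56%) at least 2-fold lower at the later time, again 168 (4.63%) in all. The median log2 ratio over all of them was -0.03 at 24 h and -0.08 at 4 days. Both comparisons share the untreated cells. These are counts past a size, not past a test.

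Several hormones other than Gip were higher after BMP4. Of 19 listed hormones, 8 had a mean of at least 50 CPM, among them Gip and Sst, which chose the cells and stayed within 2-fold. Of the 8, 2 were at least 2-fold higher at 24 h and 6 at 4 days, where 1.98% and 3.83% of all genes were. Nts and Iapp reached that mean only through the 4 day cells where they were high, and Tac1, which was lower after BMP4, did not reach it, so the counts do not stand for all hormones. Sct and Pyy were the 2 at 24 h, and Cck, Ghrl, Nts and Iapp joined them at 4 days.

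Sct encodes secretin, a peptide that stimulates bicarbonate secretion by the pancreas, and lies on chromosome 7 (141278330 to 141279133, minus strand). Single untreated cells held 0 to 3883 CPM of Sct with a median of 298. At 24 h the range was 0 to 78028 CPM with a median of 937, and at 4 days it was 0 to 75140 CPM with a median of 12615. The 3 ranges overlapped, but the lower quartile at 4 days, 3633 CPM, lay near the highest untreated cell. In the sums Sct stood at 353, 5820 and 19941 CPM, ratios to untreated of 16.5 (counting interval 13.9 to 19.7) and 56.5 (48.0 to 67.2). On the other 4 plates with all conditions, Sct was 4.21 to 10.7 times higher at 24 h and 10.1 to 17.9 times higher at 4 days, over all cells that passed the depth and Kcnq1ot1 limits, where each condition had at least 9 of them.

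Pyy encodes peptide YY, a satiety peptide of L cells of the lower gut (chromosome 11, 102106676 to 102107832, minus strand). Untreated cells held 0 to 690 CPM with a median of 0, cells at 24 h 0 to 21366 CPM with a median of 150, and cells at 4 days 0 to 62738 CPM with a median of 743. Some cells at both times lay above the highest untreated cell, and the lower ends of the ranges overlapped. The sums were 71.5, 2101 and 6688 CPM, ratios of 29.4 (20.3 to 44.1) and 93.5 (65.0 to 140). A single cell gave 42.3% of the Pyy transcripts at 24 h. Sst-dominant cells stood at 48.6, 3877 and 16177 CPM, so Pyy was not confined to Gip-dominant cells.

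Cck, cholecystokinin of I cells, which slows gastric emptying and contracts the gallbladder, stood at 778, 935 and 5065 CPM. Its median per cell was 450, 392 and 701 CPM and its highest cell 5491, 7283 and 52731 CPM, so the 4 day sum reflects few very high cells above a median that moved little. The ratio at 4 days was 6.51 (5.78 to 7.33), with a single cell giving 27.3% of the transcripts. In Sst-dominant cells Cck stood at 501, 848 and 5430 CPM, so the higher level at 4 days was seen in both types. On the 3 other plates with enough counts Cck was 0.158 to 0.352 times the untreated level at 4 days.

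Ghrl, the ghrelin gene of X cells, was at 225, 186 and 2240 CPM, with 45.7% of its 4 day transcripts in 1 cell, and at 2206, 2921 and 5582 CPM in Sst-dominant cells. Across alternative ways of choosing cells and scaling, its 4 day ratio of 9.97 ranged from 6.07 to 12.2. Nts, neurotensin of N cells, was at 4.93, 2.51 and 330 CPM, and 5 of 65 cells at 4 days held any. Iapp, islet amyloid polypeptide, was at 34.5, 47.7 and 92.8 CPM, a 4 day ratio of 2.69 that was 1.28 with a minimum of 1000 transcripts per cell, against 5242, 3148 and 759 CPM in Sst-dominant cells. These 3 genes thus rest on few cells or few transcripts. Tac1, the substance P precursor, went from 56.7 to 20.1 and 8.07 CPM, below the level set for ratios. Gcg, proglucagon, was below that level too, at 9.86, 57.8 and 54.5 CPM.

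**Figure D2:**
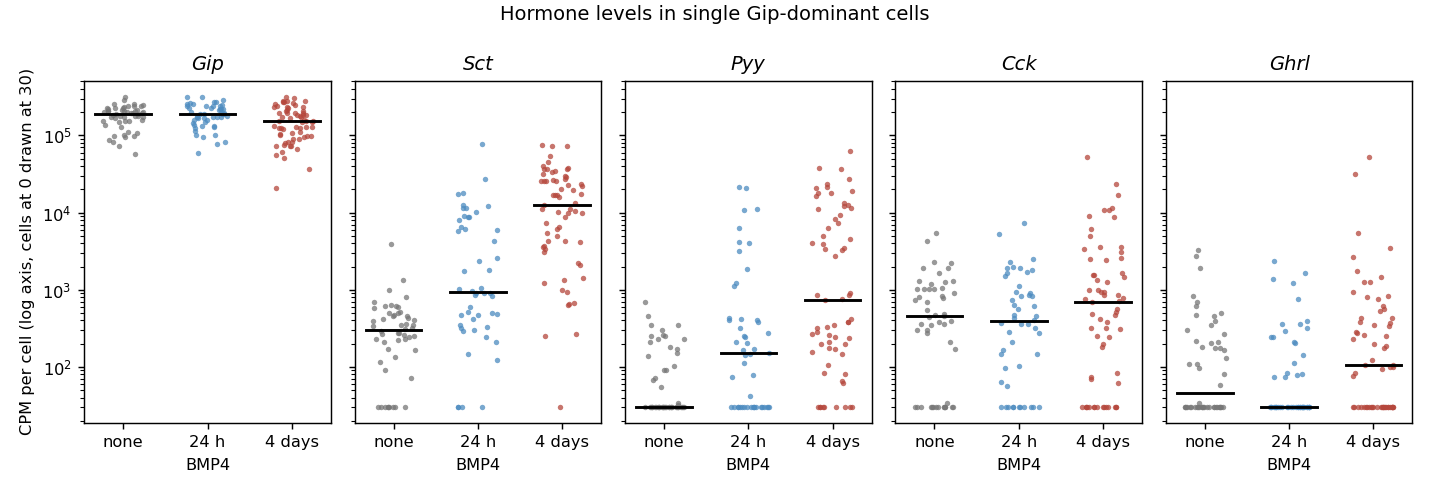
CPM of 5 hormones in each of the 167 Gip-dominant cells (dots, logarithmic axis, cells at 0 drawn at 30) by BMP4 time, with the median as a line. The Gip medians are 189202, 187820 and 152284 CPM, the Sct median goes from 298 to 937 and 12615 CPM and high Pyy, Cck and Ghrl cells appear.

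To compare cells at one depth, each was thinned to 2000 transcripts, which kept all 167 cells. A Sct transcript was then found in 40.4% of untreated cells (21 of 52, exact Clopper-Pearson 95% interval 27.0 to 54.9%), 78.0% at 24 h (64.0 to 88.5%) and 93.8% at 4 days (85.0 to 98.3%). Without thinning the shares were 82.7%, 92.0% and 98.5%. At least 5 Sct transcripts were found in 1.92%, 40.0% and 80.0% of cells. The corresponding shares for Pyy were 19.2%, 36.0% and 63.1% with any transcript and 0%, 16.0% and 41.5% with at least 5. Sst-dominant cells had at least 5 Sct transcripts in 0 of 10, 0 of 14 and 6 of 19 cells. These intervals cover the sampling of cells on this plate only, since the cells of a condition are 1 sample, and they test no difference between conditions.

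Counting every listed hormone besides Gip and Sst at 5 or more thinned transcripts, 90.4% of untreated Gip-dominant cells had none, 52.0% at 24 h and 13.8% at 4 days. Cells with 2 or more such hormones numbered 0 of 52 (interval 0 to 6.85%), 10 of 50 (10.03 to 33.7%) and 32 of 65 (49.2%, 36.6 to 61.9%). In Sst-dominant cells these were 2 of 10, 3 of 14 and 7 of 19, with wide intervals. Hormones overlapped in the same cells at 24 h, where Pyy reached 5 transcripts in 7 of 20 cells with at least 5 Sct transcripts and in 1 of the other 30. At 4 days the counts were 24 of 52 and 3 of 13. Median thinned Gip was alike in Sct-high and Sct-low cells at 24 h, at 375.5 and 371 transcripts, and at 4 days it was 323.5 and 298.

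**Figure D3:**
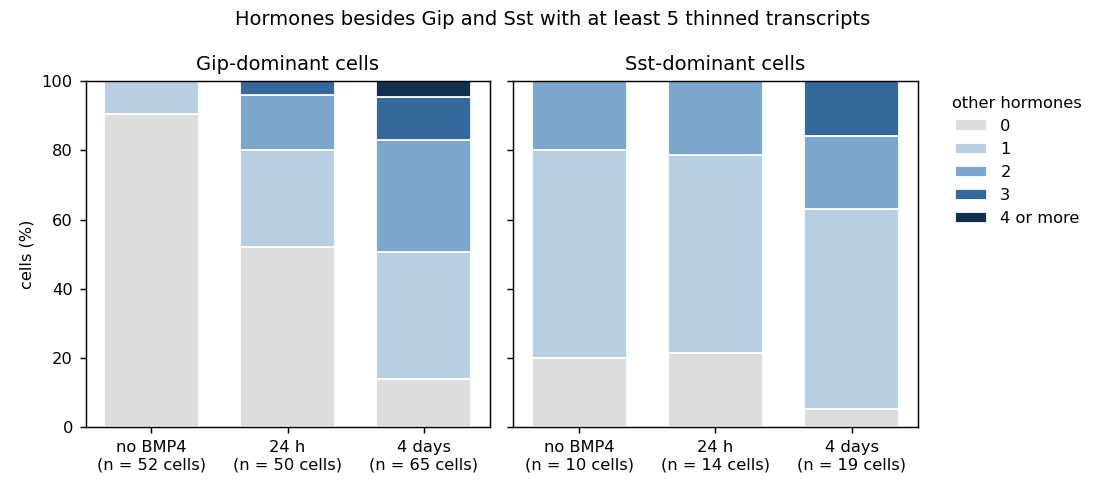
Share of cells (%) by how many hormones besides Gip and Sst had at least 5 transcripts after thinning to 2000, in Gip-dominant (52, 50 and 65) and Sst-dominant (10, 14 and 19) cells of the 3 conditions. The share of Gip-dominant cells with no other hormone goes from 90.4% to 52.0% and 13.8%.

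The Id genes were higher after BMP4 at both times. Of 11 listed BMP targets, 5 had a mean of at least 50 CPM, Id1 and Id3 only through the treated cells. Of the 5, 3 were at least 2-fold higher at 24 h and 4 at 4 days, where 1.98% and 3.83% of all genes were. Id1 (chromosome 2, 152736251 to 152737410, plus strand) stood at 7.40, 87.9 and 373 CPM, ratios of 11.9 (3.74 to 60.4) and 50.5 (17.0 to 247). Id2 stood at 81.4, 639 and 785 CPM and Id3 at 12.3, 344 and 539 CPM. Id2 and Id3 had reached most of their 4 day level by 24 h, while Id1 was 4.25 times higher at 4 days than at 24 h. Bambi, a decoy receptor for the pathway, was at 76.4, 103 and 186 CPM. Its 4 day ratio of 2.43 was 1.87 with the mean of per-cell CPM, and on the 3 other plates with a ratio it was 0.174 to 1.13. Tgif1, a Smad corepressor, was at 88.8, 85.4 and 56.5 CPM. After thinning, an Id1 transcript was found in 1.92%, 14.0% and 50.8% of cells and an Id2 transcript in 17.3%, 52.0% and 76.9%. Each of Id1, Id2 and Id3 was also at least 2-fold higher on 4 of 4 other plates at both times.

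Receptors and Smads of the pathway were near the background. None of 4 was past 2-fold at either time, and Bmpr1a, a type I receptor, stood at 96.2, 126 and 84.7 CPM and Smad1 at 98.6, 70.3 and 80.7 CPM. Of 3 villus tip genes with a mean of at least 50 CPM, 1 was at least 2-fold higher and 1 at least 2-fold lower at 24 h. At 4 days 2 were higher and 1 lower. Over all genes 1.98% were higher and 2.23% lower at 24 h, and 3.83% and 4.63% at 4 days. Tbx3, counted as higher at both times, reached that mean only through the treated cells, so the counts do not stand for the list. Creb3l3 was the lower one, at 98.6, 47.7 and 48.4 CPM, and reached that mean only through the untreated cells. Tbx3, a T-box transcription factor of that list, stood at 12.3, 108 and 212 CPM, ratios of 8.76 (3.47 to 28.3) and 17.2 (7.13 to 54.0). At 24 h a thinned Tbx3 transcript was found in 10 of 20 Sct-high and 1 of 30 Sct-low cells, and an Id3 transcript in 11 and 4. At 4 days Tbx3 was found in 19 of 52 Sct-high and 3 of 13 Sct-low cells and Id3 in 29 and 6, so the shares lay closer together. These counts are small and their difference was not tested.

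The Sct and Id2 promoters are shown because both genes were higher at 24 h and both windows hold GGCGCC, a GC-rich sequence that BMP Smads are known to bind, in capitals (RefSeq, GRCm38.p6, minus strand, chr7:141279270-141279335 and chr12:25096288-25096342).
Sct: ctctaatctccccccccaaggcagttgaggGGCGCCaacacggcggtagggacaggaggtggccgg
Id2: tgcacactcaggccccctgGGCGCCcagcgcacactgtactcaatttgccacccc
This palindromic motif is held by 11.9% of all promoter windows. Over the 786 genes with a level that hold it, the median log2 ratio at 4 days was -0.06, against -0.08 over 2811 such genes with a promoter entry.

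**Figure D4:**
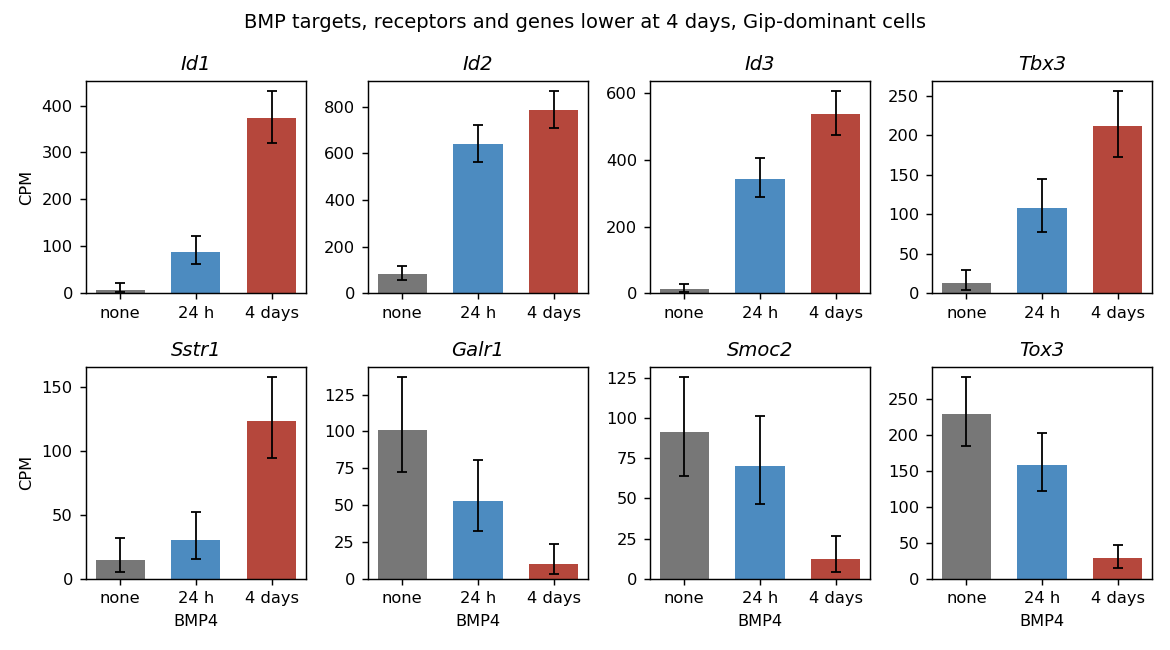
CPM (bars, with exact Poisson 95% intervals that cover counting error only) of 8 genes in Gip-dominant cells without BMP4, at 24 h and at 4 days. Id1, Id2, Id3, Tbx3 and Sstr1 are highest at 4 days, and Galr1, Smoc2 and Tox3 lowest.

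Among hormone and neural receptors, 4 had a mean of at least 50 CPM. Sstr1, a somatostatin receptor, stood at 14.8, 30.1 and 123 CPM, a 4 day ratio of 8.32 (3.61 to 23.5), and was at least 2-fold higher on 4 of 4 other plates. Galr1 was 10.03 times lower at 4 days, at 10.1 CPM. Sstr1 reached that mean only through the 4 day cells and Galr1 only through the untreated and 24 h cells. Their ratios therefore do not stand for the list. Cnr1 and Ptger3 were within 2-fold at both times, Ptger3 at 121, 183 and 161 CPM.

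Outside the lists, Asic5, D8Ertd82e and Hpgd were among the 10 largest ratios upward at 4 days. Myl7 and Plekhg6 were among those at 24 h. The ranking took genes found in at least 20% of thinned cells of the higher condition. A thinned transcript of Asic5, D8Ertd82e and Hpgd was found in 29.2%, 24.6% and 23.1% of cells at 4 days. Without BMP4 the shares were 3.85%, 1.92% and 3.85%, so these 3 genes entered only through the 4 day cells. Asic5, an acid-sensing ion channel family member, was at 32.1, 85.4 and 530 CPM, with 42.4% of its 4 day transcripts in 1 cell and any in 26 of 65 cells, against 2326, 1476 and 2331 CPM in Sst-dominant cells. Myl7, a myosin light chain, was at 155, 501 and 1231 CPM, a ratio of 7.92 (6.11 to 10.4), and Plekhg6 at 41.9, 168 and 278 CPM. Hpgd, which breaks down prostaglandins, was at 19.7, 105 and 182 CPM, and D8Ertd82e at 9.86, 55.2 and 117 CPM. Ghrl and Asic5 are both high in Sst-dominant cells, whose defining genes Sst and Hhex were at 7718 and 44.4 CPM in Gip-dominant cells at 4 days against 5530 and 32.1 CPM untreated, and their part in the levels of Ghrl and Asic5 was not tested. Over the alternatives the 4 day ratio of Asic5 ranged from 8.47 to 19.5 and its 24 h ratio of 2.66 from 1.37 to 3.25. The 24 h ratio was under 2-fold with a minimum of 1000 transcripts and in cells with at least 10 times more Gip than Sst.

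The largest ratios downward included Tox3, a high mobility group box protein, at 229, 158 and 28.2 CPM, which was 8.13 times lower at 4 days. Nme2, a nucleoside diphosphate kinase, was at 296, 138 and 56.5 CPM, and its near-identical relatives make its counts uncertain. Smoc2, a matricellular gene listed with stem and crypt genes, was at 91.2, 70.3 and 12.1 CPM. Igfbp7 was at 254, 136 and 62.5 CPM and Prps1, a phosphoribosyl pyrophosphate synthetase, at 237, 211 and 68.6 CPM. The ranking took only genes found in at least 20% of thinned untreated cells. At 4 days Tox3, Nme2, Igfbp7 and Prps1 were found in 4.62%, 4.62%, 6.15% and 7.69%, so they met that share only in cells where they were higher. Smoc2, named from its list, reached a mean of 50 CPM only through the untreated and 24 h cells.

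Genes of protein folding in the endoplasmic reticulum were lower after BMP4. Of 8 unfolded protein response genes with a mean of at least 50 CPM, 1 was at least 2-fold lower at 24 h and 5 at 4 days, with none higher, against 2.23% and 4.63% of all genes. Of all 3631 genes, 1904 had a log2 ratio below 0 at 24 h and 2075 at 4 days. All 8 of these genes did at both times, with medians of -0.52 and -1.12. The summed level over the 11 listed genes went from 4899 to 3121 and 2339 CPM. Hspa5, the chaperone BiP, ranged from 0 to 5392 CPM per untreated cell with a median of 1213, from 0 to 1822 CPM at 24 h with a median of 527, and from 0 to 2034 CPM at 4 days with a median of 385. The ranges overlapped and the medians were ordered untreated, 24 h and 4 days.

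In the sums Hspa5 stood at 1383, 739 and 579 CPM, 2.39 times lower at 4 days. Hsp90b1, the chaperone GRP94, was at 842, 606 and 377 CPM, and Calr, the calcium-binding chaperone calreticulin, at 1228, 829 and 583 CPM. Manf and Dnajb9 were the other 2 at least 2-fold lower at 4 days, at 370, 211 and 137 CPM and at 126, 110.5 and 52.4 CPM. Herpud1, the gene at least 2-fold lower at 24 h, was at 350, 163 and 216 CPM, and Xbp1 was at 415, 326 and 290 CPM. The next grouping was made after the ranking was seen, with no list behind it and no count of such genes over all genes. Of the 10 largest ratios downward at 4 days, 5 genes with roles in the reticulum are given together here. They include Serp1 (536, 241 and 143 CPM), which stabilises membrane proteins, Stt3a (160, 72.8 and 42.3 CPM), a catalytic subunit of oligosaccharyltransferase, and Dnajc3 (294, 229 and 80.7 CPM), a cochaperone. Erp44 (165, 85.4 and 48.4 CPM) and Ero1lb (173, 153 and 54.4 CPM), of disulfide bond formation, are the other two. On the other plates, over all passing cells, Ero1lb was at least 2-fold lower at 4 days on 2 of 3 with a ratio. No other plate had Hspa5, Calr, Hsp90b1, Serp1, Stt3a, Erp44 or Dnajc3 at least 2-fold lower at 4 days. Hsp90b1 and Dnajc3 were below their untreated level on 4 of 4 other plates. Hspa5, Calr, Serp1 and Stt3a were below it on 3 of 4 and Erp44 on 1 of 4. Hspa5 there was 0.640 to 1.34 times the untreated level. In Sst-dominant cells Hspa5 stood at 682, 484 and 410 CPM.

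**Figure D5:**
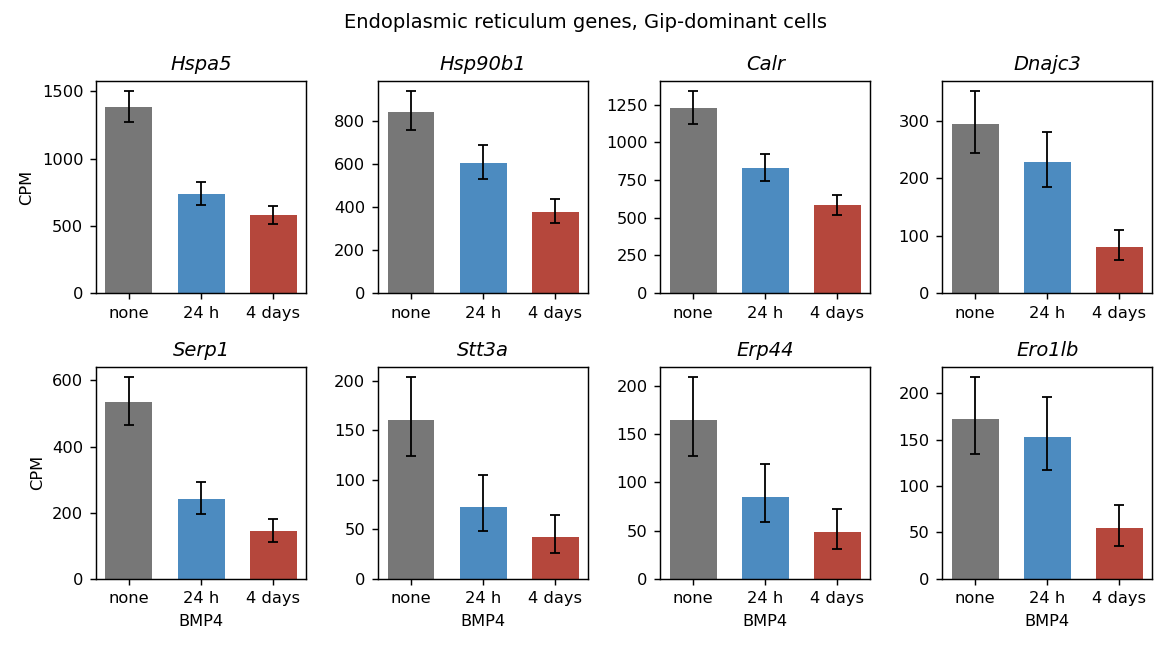
CPM (bars, with exact Poisson 95% intervals that cover counting error only) of 8 endoplasmic reticulum genes in Gip-dominant cells without BMP4, at 24 h and at 4 days. In each panel the 4 day bar is the lowest, with Hspa5 going from 1383 to 739 and 579 CPM.

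Promoters of 4 of these genes are shown because they hold the endoplasmic reticulum stress element, CCAAT and CCACG with 9 bases of any kind between them, to which NF-Y and ATF6 are known to bind. The fixed letters are in capitals, and CGTGG before ATTGG is a match on the other strand. Positions (RefSeq, GRCm38.p6) are chr2:34772000-34772068 on the plus strand for Hspa5, chr10:86705508-86705681 on the minus strand for Hsp90b1, chr8:84847050-84847118 on the minus strand for Calr and chr14:118937802-118937870 on the plus strand for Dnajc3.
Hspa5: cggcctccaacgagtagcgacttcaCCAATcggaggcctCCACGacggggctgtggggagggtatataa
Hsp90b1: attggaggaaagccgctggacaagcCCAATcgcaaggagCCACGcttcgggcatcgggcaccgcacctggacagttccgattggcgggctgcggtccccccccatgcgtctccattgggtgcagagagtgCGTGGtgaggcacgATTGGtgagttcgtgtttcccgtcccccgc
Calr: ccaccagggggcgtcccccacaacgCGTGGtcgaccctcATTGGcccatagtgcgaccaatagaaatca
Dnajc3: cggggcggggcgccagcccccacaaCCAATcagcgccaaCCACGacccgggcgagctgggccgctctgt
Only 0.119% of the 32851 promoter windows (39) hold this element on either strand. Of genes with a promoter entry and a level in the Gip-dominant cells, 9 of 2811 do. At 4 days 2075 of all 3631 genes with a level had a log2 ratio below 0. All 9 genes with the element had one, with a median of -1.07 against -0.08 over the 2811. They are Calr, Canx, Creld2, Dnajc3, Hnrnpa3, Hsp90b1, Hspa5, Pdia6 and Syvn1, of which Pdia6, a protein disulfide isomerase, was at 568, 327 and 196 CPM. The motif was chosen after the levels were seen, 4 of the 9 are on the list above, and Herpud1, Dnajb9 and Xbp1 of that list had no match in their windows, so the 9 genes are a description.

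Most transcription factors of the enteroendocrine programme stayed within 2-fold. Of 17 with a mean of at least 50 CPM, 1 was at least 2-fold higher at both times, and 2 were at least 2-fold lower at 4 days. Over all genes the shares were 1.98% and 3.83% higher and 4.63% lower at 4 days. Fev, a factor of serotonergic cells, was the higher one, at 155, 354 and 337 CPM. Insm1 and Nkx2-2, factors that act early in endocrine differentiation, were the lower ones, at 726, 570 and 325 CPM and at 313, 264 and 147 CPM. Isl1 (931, 1245 and 1004 CPM), Pax6 (1035, 1046 and 799 CPM) and Neurod1 (775, 663 and 735 CPM) stood within 2-fold.

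Secretory granule genes, which process and store hormones, mostly stayed within 2-fold of their untreated level. At 4 days 8.45% of all genes were past 2-fold either way, and 1 of 14 genes of the secretory granule was. This was Pcsk1n, whose product inhibits the prohormone convertase PCSK1, at 234, 389 and 733 CPM. Cpe, which trims prohormones, stood at 4004, 3739 and 3251 CPM, and Pcsk1 itself at 187, 261 and 222 CPM. Syt7, a calcium sensor of release, was at 442, 540 and 672 CPM. Of 7 ion channel genes 1 was past 2-fold at 4 days, against the same 8.45% of all genes. This was Cacna1h, a T-type calcium channel, at 279, 171 and 92.8 CPM. Abcc8, the sulfonylurea receptor subunit of the ATP-gated potassium channel, was at 694, 714 and 884 CPM. Counts this small do not set either list apart from all genes.

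Of 7 nutrient sensing genes, 1 was at least 2-fold higher and 1 at least 2-fold lower at 4 days. Over all genes the shares were 3.83% and 4.63%, and counts this small do not set the list apart. Slc15a1, the intestinal peptide transporter, was the higher one, at 81.4, 136 and 175 CPM, a 4 day ratio of 2.16 (1.43 to 3.32). Slc2a5, the fructose transporter, was the lower one, at 141, 143 and 68.6 CPM, a ratio of 0.488 (0.309 to 0.759). Both ratios lay near the 2-fold limit. The lipid receptors Ffar4 (146, 208 and 165 CPM) and Gpr119 (126, 166 and 131 CPM) and the glucose transporter Slc5a1 (523, 450 and 317 CPM) were within 2-fold. Of these Gpr119 was at 48.6, 6.04 and 14.6 CPM in Sst-dominant cells.

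Markers of other epithelial cells were checked for the whole of each list. Of 6 goblet genes, 5 were at least 2-fold lower and 1 higher at 24 h, where 2.23% and 1.98% of all genes were, but 87.7% of the untreated and 65.3% of the 4 day goblet transcripts came from a single cell each. In 3 cells goblet genes made up 4.13% (untreated), 3.24% and 20.5% (4 days) of transcripts, and the last of them held the lowest Gip share, 2.10%. Without these 3 cells Tff3, a trefoil factor, and Fcgbp were higher at 24 h, with log2 ratios of 0.85 and 1.02, where the whole set gave values below 0. Of 6 enterocyte genes none was past 2-fold, with Sis, sucrase-isomaltase, at 1045, 971 and 727 CPM. The tuft list summed to 0, 0 and 6.05 CPM, with Dclk1 at 0. The stem and crypt list summed to 145, 108 and 42.3 CPM, with Lgr5 at 0, 0 and 4.03 CPM. Smoc2, given above, was its 1 gene with a mean of at least 50 CPM. In the Paneth list this was Lyz1, at 252, 82.9 and 101 CPM, with 42.3% of its untreated transcripts in 1 cell. Lyz1 was at least 2-fold lower at both times, where 2.23% and 4.63% of all genes were. The serotonin gene Ddc stood at 1206, 1379 and 965 CPM, and Slc18a1, the vesicular amine transporter, at 32.1, 32.6 and 94.8 CPM. Slc18a1 reached a mean of 50 CPM only through the 4 day cells. The proliferation list summed to 74.0, 85.3 and 84.7 CPM, with no gene reaching a mean of 50 CPM.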

How the data were processed

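Sorted single cells were processed with SORT-seq, an adaptation of CEL-seq2 (source: per the labels' protocols). The submitters' processing notes name BWA 0.6.2-r126 and mm10. The sources used here do not give the gene annotation or strand setting. The deposited values are expected counts, that is, numbers of transcripts after the authors' correction for molecular identifiers that were drawn repeatedly. When this correction was inverted for 4096 identifiers, 99.8% of nonzero values came within 0.01 of a whole number, although the labels state 4-base identifiers.

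Expected counts were summed per condition over the chosen wells, unrounded, and scaled to CPM with Python 3.11.15, numpy 2.4.6, pandas 2.3.3 and scipy 1.17.1. Ratios carry exact conditional binomial 95% intervals, a gene at 0 was set to a floor of 3 counts, and the calculation was tested on simulated data. No doublet caller was run. With 1 plate there is no test. Conditions follow the deposited well list, which matched the labels in 1920 of 1920 wells.

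Members and gene lists were chosen with earlier results of these data known. Named genes are the hormones and BMP targets with a mean of at least 50 CPM, the 10 largest ratios each way per comparison among genes in at least 20% of thinned cells of the higher condition, the 15 highest genes, the 10 largest ratios to Sst-dominant cells and up to 4 per other list. Gcg, Gata4, Gata6, Nkx2-2, Insm1, Fev, Neurod1, Pcsk1n, Pcsk1, Slc2a5, Slc15a1, Manf, Dnajb9, Herpud1, Pdia6, Miat, Dusp1, Fosb and Lss were named after their values were seen. The count over docking and exocytosis genes is not reported here. The minimum of 9 cells per condition on other plates was also set after the data were seen. Alternatives changed the depth, Kcnq1ot1 and Gip limits, the scaling, the level filter and the thinning.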

Additional observations from a re-analysis of the deposited data

Results flagged for a closer look

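At 4 days 3 ratios lay past 2-fold in Gip-dominant cells and in the opposite direction in Sst-dominant cells of the same plate. Iapp was 2.69 times its untreated level in Gip-dominant cells, at 92.8 CPM, and went from 5242 to 759 CPM in Sst-dominant cells. Lyz1, lysozyme of Paneth cells, was at 0.40 times in Gip-dominant cells and went from 13.9 to 29.3 CPM in the others. Creb3l3, a liver and gut transcription factor, was at 0.491 times and went from 6.95 to 29.3 CPM. The last 2 rest on few transcripts in Sst-dominant cells, and none of these differences was tested. Each of the 3 left the 2-fold range under an alternative: Iapp was at 1.28 times with a minimum of 1000 transcripts, Lyz1 at 0.553 times without its richest cell and Creb3l3 at up to 0.585 times in 3 alternatives.

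A further 3 ratios at 4 days were opposite to those on every other plate that gave one. Cck was 6.51 times higher in Gip-dominant cells and 0.158 to 0.352 times the untreated level on 3 other plates. In Sst-dominant cells of the Gip plate Cck was 10.8 times higher (8.55 to 14.0). Ghrl was 9.97 times higher in Gip-dominant cells, 2.53 times higher in Sst-dominant cells, and 0.0403 to 0.959 times on 3 other plates. Asic5 was 16.5 times higher, and on 3 other plates stood at 0.105 times, at most 0.299 times and at most 0.989 times, the last 2 with no transcript at 4 days. The other plates hold sorted Gcg and Tac1 reporter cells of many types, so cell makeup differs from that of the Gip-dominant cells, and its part in these differences was not tested. The differences themselves were not tested.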

How the results depend on the processing

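No paired analysis was possible because all conditions of the Gip line lie on 1 plate. Of 34 named ratios past 2-fold at 24 h, 25 stayed past it under every alternative run, and 39 of 46 did at 4 days. With the mean of per-cell CPM in place of sums, 119 genes were at least 2-fold higher and 124 lower at 24 h. With no filter on low levels the counts were 943 higher and 888 lower at 24 h and 1055 and 1222 at 4 days, and with a mean of at least 200 CPM they were 16 and 6, then 28 and 22. Without the Kcnq1ot1 limit 253 genes were lower at 4 days, where the median log2 of all genes shifted by -0.18. Shares of cells with Sct without thinning were 82.7%, 92.0% and 98.5%, and with at least 5 transcripts 1.92%, 40.0% and 80.0%. For Pyy they were 44.2%, 62.0% and 86.2%, and 0%, 16.0% and 41.5%. Directions reversed for Tff3 and Fcgbp at 24 h without the cell with most transcripts (log2 0.72 and 0.62) or, chosen after seeing the data, without the 3 goblet-rich cells (0.85 and 1.02), and for Muc2 at 4 days with the mean of per-cell CPM (0.42). Calr at 4 days was 0.513 times untreated at its highest, with per-cell means. Levels of a few CPM rest on few transcripts, so ratios to them have wide counting intervals, as for Id1.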

Other observations

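Genes of cholesterol synthesis were close to the background in Gip-dominant cells. Of 10 with a mean of at least 50 CPM, 1 was past 2-fold at 24 h and none at 4 days. Over all genes 4.21% and 8.45% were past 2-fold either way. The gene was Lss, lanosterol synthase, at 76.5, 35.1 and 70.6 CPM without BMP4, at 24 h and at 4 days. The summed level of the list was 3105, 2713 and 2998 CPM. Of 8 immediate early and heat shock genes, 1 was at least 2-fold lower at both times and 1 at least 2-fold higher at 4 days. Over all genes 2.23% and 4.63% were lower and 3.83% higher at 4 days. Fosb, a subunit of the AP-1 transcription factor, was the lower one, at 163, 22.6 and 74.6 CPM. Dusp1, a phosphatase of MAP kinases, was the higher one, at 37.0, 67.8 and 88.7 CPM. Dusp1 reached a mean of 50 CPM only through the treated cells. None of 3 interferon and antigen presentation genes with a mean of at least 50 CPM was past 2-fold. Irf7, an interferon regulatory factor of that list below this mean, was at 17.3, 52.7 and 66.5 CPM, a 4 day ratio of 3.85 (1.68 to 10.3), and was higher at 4 days on 3 of 3 other plates with a ratio. Of 5 nuclear RNAs, 1 was at least 2-fold higher at both times, where 1.98% and 3.83% of all genes were. This was Miat, a long noncoding RNA, at 4.93, 47.7 and 117 CPM, a 4 day ratio of 23.7 (6.28 to 200). Miat reached a mean of 50 CPM only through the treated cells.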
